A study of Homo sapiens with 9 samples.

Results

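Keratins are the intermediate filament proteins of epithelial cells, and each filament is built from pairs of 1 type I and 1 type II keratin. Hepatocytes are known for carrying KRT8 and KRT18 alone, whereas bile duct cells also carry KRT7 and KRT19. SOX9, SOX4, EPCAM and SPP1 are used as markers of bile duct cells or of liver progenitor cells, and CDH1 encodes E-cadherin, which joins epithelial cells to each other. The 10 genes described here, KRT7, KRT8, KRT18, KRT19, KRT23, SOX9, SOX4, EPCAM, SPP1 and CDH1, were picked by name from the 58735 genes of the deposited tables, with earlier results of these same libraries in view. Their values in the comparisons are therefore a description, and no p-value is given for them.

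The RNA came from Huh-7 cells, an established human hepatoma line. Control Huh-7 cells of unedited genotype were compared with Ako-3 cells, a clone of Huh-7 deficient in APOB, and with Mko-3 cells, a clone of Huh-7 deficient in MTTP. APOB encodes apolipoprotein B, the structural protein of lipoproteins, and MTTP encodes the transfer protein that loads lipid onto it. The Ako cells were made with CRISPR/Cas9, and each knockout is represented by 1 clone, so that clone and genotype cannot be told apart. Confluent cultures were kept in medium without serum overnight before the RNA was taken. Each group had 3 libraries, labelled as biological replicates, and the same 3 control libraries served both knockouts. The labels do not say what was separate between replicates, so errors and p-values measure only the spread between these libraries, which may be technical.

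The libraries held 14638727 to 20179760 counts each. Mitochondrial genes took 5.52 to 6.17% of the counts in control cells, 7.06 to 7.40% in Ako-3 cells and 5.75 to 5.82% in Mko-3 cells, and the part of this share in the results was not tested. The targeted genes followed the labels. The APOB level was 224 ± 40.5 FPKM in the controls against 87.5 ± 6.11 in the Ako-3 libraries (SD, n = 3), and the MTTP level was 116 ± 5.24 in the controls against 16.0 ± 0.656 in the Mko-3 libraries. FPKM, fragments per kilobase of gene and unit of sequencing depth, is a level per length and was used wherever genes are set beside each other. The cells carried hepatocyte markers. ALB, the gene of albumin, stood at 2452 to 2599 FPKM in control, 2537 to 2644 in Ako-3 and 1803 to 1871 in Mko-3 libraries. In each group, 16 of 20 hepatocyte markers had a mean above 1 FPKM. Some bile duct markers were near 0: CFTR, the chloride channel of duct cells, did not exceed 0.0973 FPKM and AQP1, a water channel, did not exceed 0.529 FPKM. AFP, the fetal albumin relative, stood at 1025 to 1077 FPKM in control, 1145 to 1191 in Ako-3 and 1795 to 1911 in Mko-3 libraries. The genes are therefore treated as a named set and not as the sign of a bile duct cell. In bulk RNA, a change in every cell and a change in the share of cells carrying a transcript cannot be told apart.

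A gene passed both thresholds when its log2 fold change was at least 1 in size and its adjusted p was at most 0.05. In Ako-3 against control cells, 0 of the 8 genes of the set that could be tested passed both, where 8.52% of all 15787 genes tested did so (3.52% higher and 5.00% lower). DESeq2 also called 0 of them, and all 8 had an unadjusted p under 0.05 with edgeR. In Mko-3 against control cells, 3 of 9 passed and all 3 were higher, namely KRT19, EPCAM and SPP1, where 11.0% of 15745 genes passed (3.82% higher and 7.22% lower). In Mko-3 against Ako-3 cells, 3 of 9 passed and all 3 were higher, namely KRT19, KRT23 and SPP1, where 5.73% of 15528 genes passed (2.26% higher and 3.47% lower). The adjusted p alone was passed by 8 of 8, 9 of 9 and 7 of 9 genes of the set in the 3 comparisons, beside 49.9%, 54.0% and 41.6% of all genes. The median log2 fold change of the tested genes of the set was 0.33, 0.82 and 0.40, beside -0.01, -0.01 and 0.00 over all genes. Because the set was picked with these results known, the counts carry no weight as evidence about the set.

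**Figure D1:**
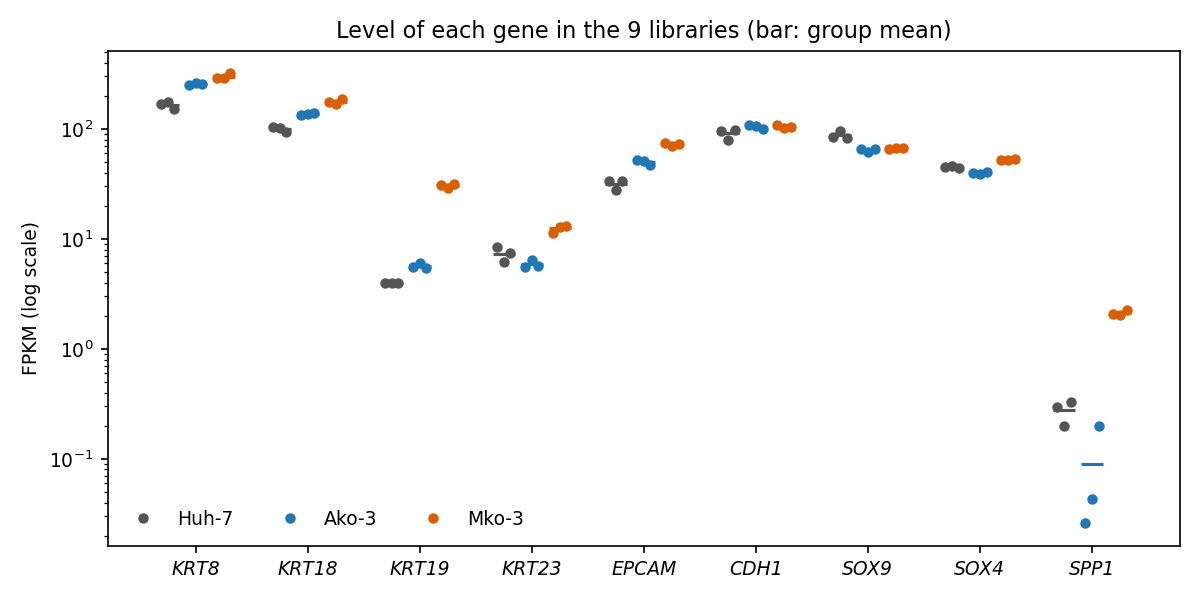
FPKM on a log axis for 9 genes in each of the 9 libraries, with control Huh-7 in grey, Ako-3 in blue and Mko-3 in orange; points are libraries and short bars are group means. KRT19 and SPP1 stood clearly higher in all 3 Mko-3 libraries (29.0 to 31.3 and 2.02 to 2.24 FPKM), while CDH1 lay between 79.8 and 108 FPKM throughout. KRT7 had no count and is not drawn.

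KRT8, the type II keratin of simple epithelia, was the highest of the set in every group. Its level in the control libraries was 168, 176 and 153 FPKM, in the Ako-3 libraries 251, 261 and 257 FPKM, and in the Mko-3 libraries 288, 290 and 321 FPKM. The groups did not overlap, and the order control, Ako-3, Mko-3 held for every library. The log2 fold change was 0.63 (SE 0.06) in Ako-3 and 0.84 (SE 0.06) in Mko-3 against control cells, and 0.22 (SE 0.03) between the clones. None of these reached the threshold of 1. By mean FPKM, KRT8 ranked 156 among all genes in control cells, 102 in Ako-3 cells and 80 in Mko-3 cells.

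KRT18, the type I partner of KRT8, showed the same order. Its level was 105, 101 and 93.0 FPKM in the control libraries, 135, 137 and 140 FPKM in the Ako-3 libraries, and 177, 167 and 187 FPKM in the Mko-3 libraries. Here too the groups did not overlap. The log2 fold change against control cells was 0.46 (SE 0.06) in Ako-3 and 0.82 (SE 0.06) in Mko-3, and that between the clones was 0.36 (SE 0.04).

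The genes of this pair lie next to each other on chromosome 12 of GRCh38 on opposite strands, KRT8 at chr12:52897187-52949954 on the minus strand and KRT18 at chr12:52948871-52952901 on the plus strand. Their gene bodies in the files share 1084 bases. Exons of all GENCODE release 44 transcripts share 525 bases, and those of the canonical transcripts share 0. Whether the counting used strand is not stated, so reads in the shared stretch cannot be assigned with certainty. The ratio of KRT8 to KRT18 in FPKM was 1.61, 1.74 and 1.64 in the control libraries, 1.86, 1.91 and 1.83 in the Ako-3 libraries, and 1.62, 1.73 and 1.72 in the Mko-3 libraries. All 3 Ako-3 libraries thus lay above the other 6, while the control and Mko-3 ranges overlapped. The size of the ratio depends on the gene length used: the files give KRT8 a length of 6881 bases and KRT18 one of 3218, whereas the canonical transcripts have 1784 and 1413 bases, with which the mean ratios were 2.82, 3.16 and 2.86. Processed copies of both genes are scattered over the genome. The 50 KRT8 and 67 KRT18 pseudogenes held 0.496 to 0.998% and 0.157 to 0.826% of the counts of their parent gene. Of the 122 pseudogenes of KRT8, KRT18 and KRT19, 2, 3 and 2 were tested in the 3 comparisons, and KRT8P3, named here after its values were seen, was the only one past both thresholds, at 1.01 on the log2 scale in Mko-3 against the controls.

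KRT7, the type II keratin of bile duct cells, had 0 counts in all 9 libraries, 0 of 155618884 counts in all. A count of 0 allows up to 3 counts in a library, which is 0.149 to 0.205 CPM (counts scaled to library depth) depending on its depth. KRT7 was therefore not detectable at this depth and was tested in no comparison.

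KRT19, a type I keratin of bile duct cells and of other simple epithelia, differed most among the keratins of the set. It had 176, 142 and 170 counts in the control libraries, 213, 281 and 220 in the Ako-3 libraries and 1296, 1202 and 1126 in the Mko-3 libraries. In FPKM these were 4.01, 3.98 and 3.99, then 5.50, 6.03 and 5.40, then 31.1, 29.0 and 31.3. The Mko-3 libraries stood far above both other groups, and the Ako-3 libraries lay above the control libraries by a smaller margin without overlap. Against control cells KRT19 was 7.56-fold higher in Mko-3 (95% confidence interval 6.66 to 8.58, log2 fold change 2.92, SE 0.09) and 1.41-fold higher in Ako-3 (1.19 to 1.68, log2 fold change 0.50, SE 0.12). Between the clones the log2 fold change was 2.42 (SE 0.07). Its rank by mean FPKM was 8099 in control cells, 6733 in Ako-3 cells and 1560 in Mko-3 cells. None of the 5 KRT19 pseudogenes had a count.

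KRT23, another type I keratin, was at 8.47, 6.18 and 7.43 FPKM in the control libraries, 5.59, 6.48 and 5.65 FPKM in the Ako-3 libraries, and 11.4, 12.9 and 13.1 FPKM in the Mko-3 libraries. The Mko-3 libraries were above all the others, and the Ako-3 and control ranges overlapped. The log2 fold change was -0.32 (SE 0.12) in Ako-3 and 0.74 (SE 0.10) in Mko-3 against control cells. The difference between the clones was 1.06 (SE 0.08) on the log2 scale, just past the threshold.

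**Figure D2:**
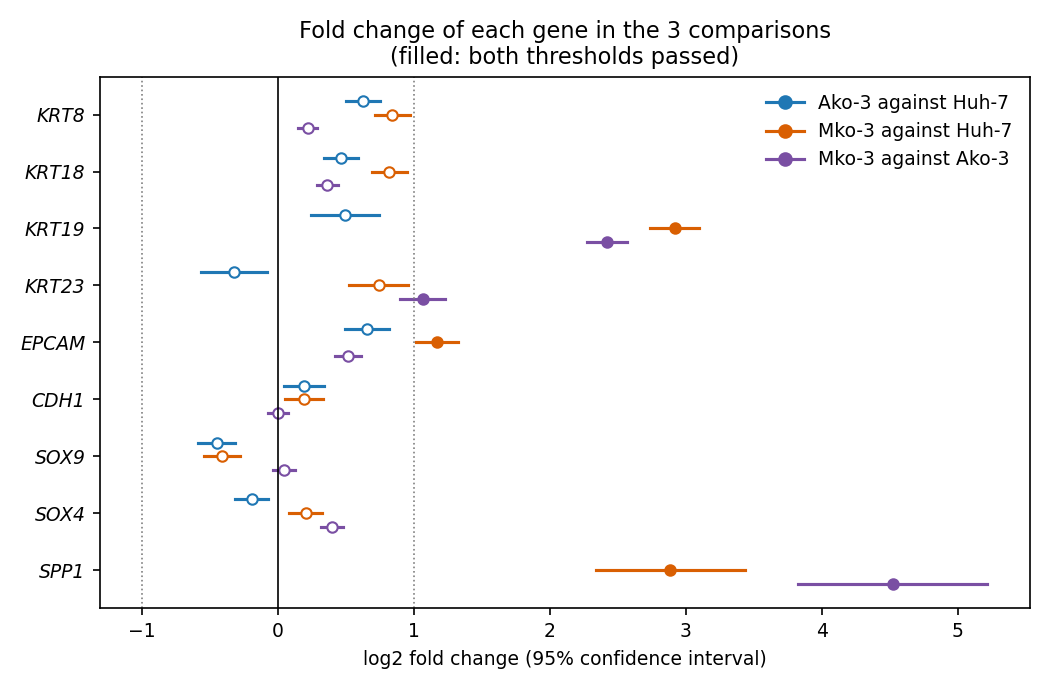
Log2 fold change with its 95% confidence interval for 9 genes in Ako-3 against control (blue), Mko-3 against control (orange) and Mko-3 against Ako-3 (purple) cells; filled points passed both thresholds, dotted lines mark a log2 fold change of 1 in either direction, and SPP1 has no blue point because it was not tested there. Filled points are KRT19 and SPP1 in both Mko-3 comparisons, EPCAM at 1.17 against control and KRT23 at 1.06 against Ako-3.

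Outside the set KRT10 was the keratin with the most reads. It was at no less than 11.4 FPKM in the control libraries, above KRT19 and KRT23 there, at 9.03 to 10.3 FPKM in the Ako-3 libraries and at 12.3 to 13.4 FPKM in the Mko-3 libraries. The tables hold 55 keratin genes, of which 39 had no count in any library, 46 had at most 3 counts in every library, and 7 had over 10 counts in some library: KRT8, KRT18, KRT19, KRT23, KRT10, KRT15 and KRT20. The summed keratin FPKM was 291 ± 17.9 in control cells, 415 ± 7.57 in Ako-3 cells and 534 ± 28.6 in Mko-3 cells (SD, n = 3). KRT8 made up 56.9%, 61.8% and 56.1% of this sum and KRT18 34.2%, 33.1% and 33.2%. KRT10 made up 4.86 ± 1.06%, 2.31 ± 0.115% and 2.44 ± 0.108%. The share of KRT19 was 1.38 ± 0.0872% in control cells, 1.36 ± 0.0717% in Ako-3 cells and 5.72 ± 0.222% in Mko-3 cells. The Mko-3 libraries alone therefore had a larger part of their keratin FPKM as KRT19, and in Ako-3 cells the KRT19 share overlapped with that of control cells. The size of these shares depends on the gene length used. The deposited length exceeds the canonical one more for KRT8 (6881 and 1784 bases) than for KRT19 (2336 and 1390 bases).

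**Figure D3:**
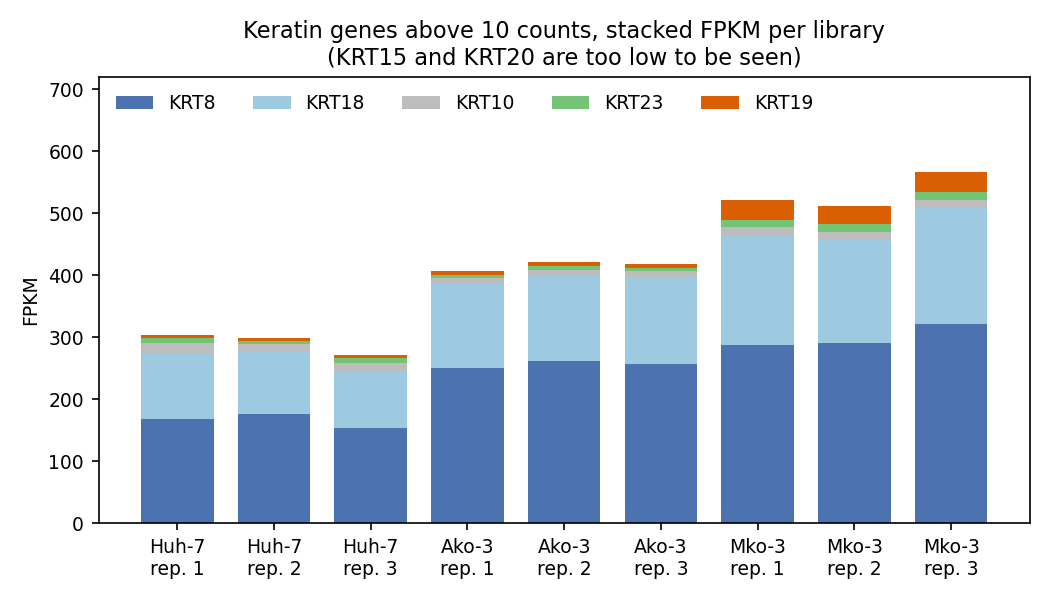
Stacked FPKM of KRT8, KRT18, KRT10, KRT23 and KRT19 in each library. The height, close to the summed keratin FPKM, lay between 270 and 303 in control, 406 and 420 in Ako-3 and 513 and 566 in Mko-3 libraries, and the orange KRT19 segment was 1.29 to 1.48% of the sum in control and Ako-3 libraries and 5.53 to 5.96% in Mko-3 libraries.

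Of the 50 keratin genes outside the set, 1 could be tested in Ako-3 against control cells and 3 in each Mko-3 comparison. KRT10, a type I keratin known from the epidermis, was at -0.57 on the log2 scale in Ako-3 (SE 0.14, edgeR quasi-likelihood test, Benjamini-Hochberg adjusted p = 3.9e-03) and at -0.14 in Mko-3 against control cells (adjusted p = 0.41 by the same edgeR test), and passed both thresholds in neither. With each library left out in turn, the KRT10 value in Ako-3 against control cells ranged from -0.70 to -0.36. KRT15, a type I keratin of basal epithelial cells, had 6 to 9 counts in control, 0 to 8 in Ako-3 and 20 to 22 in Mko-3 libraries. It was higher in Mko-3 cells by 1.44 against control (SE 0.40, edgeR Benjamini-Hochberg adjusted p = 4.6e-03) and by 2.67 against Ako-3 on the log2 scale (SE 0.52, adjusted p = 1.7e-05 by the same test). The second of these was 4.21 without Ako-3 replicate 2. KRT20, a type I keratin of intestinal epithelium, had 2 to 6 counts in control, 0 to 2 in Ako-3 and 21 to 31 in Mko-3 libraries. Its log2 fold change against control cells was 2.71 (SE 0.45, edgeR Benjamini-Hochberg adjusted p = 3.0e-05), and it was at least 9.27-fold higher in Mko-3 than in Ako-3 cells when Ako-3 is set to the floor of 3 counts per library. Both genes passed the filter on low counts only through the Mko-3 libraries, so a difference in that direction was bound to be seen, and their levels stayed under 1 FPKM.

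KRT19, KRT15, KRT23, KRT20 and KRT10 all lie in the type I keratin cluster of chromosome 17, with KRT19 at chr17:41523617-41528308 on the minus strand. KRT15 ends 1.09 kb before KRT19 starts, and KRT23 ends 586 kb before it. Among the 10 tested genes nearest to KRT19, 5 on each side, the median log2 fold change in Mko-3 against control cells was 0.04, and the 2 that passed both thresholds were KRT20 and KRT15. Against Ako-3 cells the median was 0.59 and 4 passed, KRT20, KRT23, KRT15 and, at 1.58, FKBP10, a folding enzyme of collagen. Over all genes tested, 11.0% passed both thresholds in Mko-3 against control and 5.73% in Mko-3 against Ako-3 cells. The 10 values against control cells ranged from -0.41 to 2.71. Whether the genes around KRT19 differed together was not tested.

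**Figure D4:**
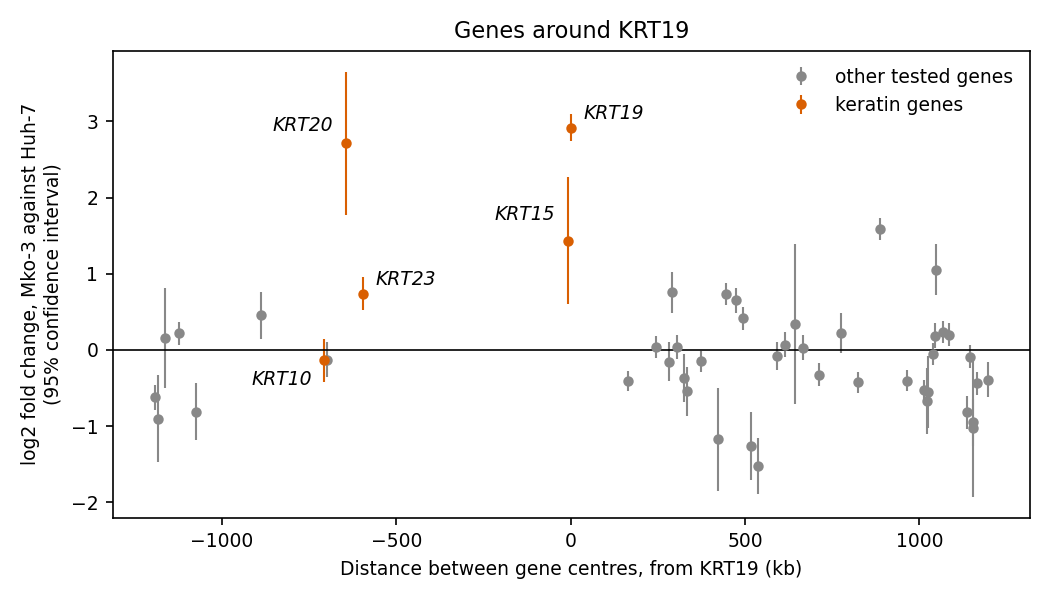
Log2 fold change (95% confidence interval) in Mko-3 against control cells for the tested genes within 1200 kb of KRT19, against the distance between gene centres in kb; keratins are orange and other genes grey. KRT19 (2.92), KRT20 (2.71), KRT15 (1.44) and KRT23 (0.74) lie above 0 and KRT10 (-0.14) near it, and the grey genes scatter to both sides.

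Desmosomal proteins and plakins tie keratin filaments to the cell border. Of 18 such genes, 13 were tested in Ako-3 against control cells and none passed both thresholds, although 5 passed the adjusted p alone, 6 had an unadjusted p under 0.05 and DESeq2 called 1. In Mko-3 against control cells 14 were tested, 3 rose and 1 fell. The largest difference was that of PKP3, plakophilin 3, a desmosomal plaque protein, which had 3 to 11 counts in control, 1 to 7 in Ako-3 and 155 to 189 in Mko-3 libraries. PKP3 rose by 4.88 against control (SE 0.28, edgeR Benjamini-Hochberg adjusted p = 1.3e-11) and by 5.42 against Ako-3 cells (SE 0.28, adjusted p = 2.5e-28 by the same edgeR test) on the log2 scale, and the first was 5.71 without control replicate 1. It passed the filter on low counts only through the Mko-3 libraries, so a difference in that direction was bound to be seen. PPL, periplakin, rose by 1.19 against control (edgeR Benjamini-Hochberg adjusted p = 9.0e-08). DSC3, desmocollin 3, stood 1.06 higher, and the call was lost without control replicate 1 (0.95), without Mko-3 replicate 2 (0.81) or with upper-quartile scaling (0.99). EVPL, envoplakin, fell by 2.10 (edgeR Benjamini-Hochberg adjusted p = 9.0e-04), or by 2.82 without Mko-3 replicate 1, and passed the filter in that comparison only through the control libraries. Against Ako-3 cells, 3 of 12 were higher in Mko-3, again PKP3, PPL and DSC3, and 0 lower. The medians of the list were 0.04, 0.12 and 0.00 in the 3 comparisons.

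EPCAM, the epithelial cell adhesion molecule on chromosome 2 (chr2:47345158-47387601, plus strand), differed stepwise over the groups. It was at 33.8, 27.7 and 33.4 FPKM in the control libraries, 52.0, 51.6 and 46.7 FPKM in the Ako-3 libraries and 74.1, 69.5 and 72.2 FPKM in the Mko-3 libraries. No library of one group reached the range of another. The fold against control was 1.58 in Ako-3 (95% confidence interval 1.41 to 1.76, log2 fold change 0.66) and 2.25 in Mko-3 (2.03 to 2.50, log2 fold change 1.17), and between the clones the log2 fold change was 0.51 (SE 0.05). With each library left out in turn, the Mko-3 value against control stayed between 1.10 and 1.22. The 10 nearest tested genes had a median log2 fold change of 0.03 in that comparison, and none of them passed both thresholds.

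CDH1 was among the high genes of the set and differed least. The control libraries were at 96.1, 79.8 and 97.1 FPKM, the Ako-3 libraries at 108, 106 and 99.6 FPKM and the Mko-3 libraries at 108, 102 and 105 FPKM. Both clones lay above all control libraries and overlapped with each other. The log2 fold change against control was 0.19 (SE 0.07) in each clone, and that between the clones was -0.00 with a 95% confidence interval of -0.08 to 0.07. Control replicate 2, the library of lowest depth, had the lowest CDH1, EPCAM and KRT23 and the highest KRT8, SOX9 and SOX4 of its group. Without it, no call among the tested genes of the set changed, but SPP1 entered the comparison of Ako-3 with the controls and passed both thresholds there at -1.81.

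Genes around E-cadherin were described beside it. All 22 adherens and tight junction genes were tested. In Ako-3 against control cells 2 rose, CLDN14 by 1.65 (edgeR Benjamini-Hochberg adjusted p = 3.4e-09) and CLDN2 by 1.16 (adjusted p = 2.0e-05 by the same edgeR test), both claudins of tight junctions, and 0 fell. In Mko-3 against control cells 1 rose, NECTIN1, an adhesion molecule of adherens junctions, by 1.08 (edgeR Benjamini-Hochberg adjusted p = 9.1e-10). Of 10 other classical cadherins, CDH6 rose in both clones, by 1.66 in Ako-3 and 3.08 in Mko-3 against control (edgeR Benjamini-Hochberg adjusted p = 5.9e-03 and 7.6e-07). CDH11, with 7 to 8 counts in the control libraries against 17 to 40 in those of Ako-3, rose by 1.97 in Ako-3 against control (edgeR Benjamini-Hochberg adjusted p = 3.8e-04). Of these, CDH11 passed the filter on low counts only through the Ako-3 libraries, and CDH6 passed it in each comparison with the controls through the knockout libraries, so a rise was the direction that could be seen. Of 14 mesenchymal genes and CDH1 repressors, 7 were tested in each comparison, and TWIST1, TWIST2 and SNAI2 had no count. ZEB2, a repressor of CDH1, was 1.07 lower in Ako-3 than in control cells on the log2 scale, a call lost without control replicate 3 (-0.89), Ako-3 replicate 1 (-0.98) or Ako-3 replicate 3 (-0.99). SNAI3 fell by 1.32 in Mko-3 against control cells (edgeR Benjamini-Hochberg adjusted p = 1.3e-05).

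SOX9, a transcription factor of bile duct and progenitor cells on chromosome 17, was lower in both clones. Its level was 84.9, 96.6 and 82.5 FPKM in the control libraries, 66.1, 61.7 and 65.9 FPKM in the Ako-3 libraries and 65.8, 67.2 and 67.4 FPKM in the Mko-3 libraries. All 6 knockout libraries lay below all 3 control libraries, and the clones overlapped. The log2 fold change against control was -0.45 (SE 0.07) in Ako-3 and -0.41 (SE 0.06) in Mko-3, and 0.04 between the clones with a 95% confidence interval of -0.04 to 0.12. SOX9 was the only tested gene of the set with a negative log2 fold change against control in both clones. It lies on the same chromosome as KRT19 but outside the keratin cluster.

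SOX4, a related transcription factor of embryonic and progenitor cells, was lower in Ako-3 and higher in Mko-3 cells than in control cells by small amounts. Its level was 45.2, 46.5 and 44.3 FPKM in control, 39.6, 38.8 and 40.7 FPKM in Ako-3 and 52.7, 51.9 and 53.2 FPKM in Mko-3 libraries. The groups did not overlap. The log2 fold changes were -0.20 (SE 0.06), 0.20 (SE 0.06) and, between the clones, 0.40 (SE 0.04). Of 17 other SOX genes, 6 were tested in each comparison and none passed both thresholds, while 3 of the 6 passed the adjusted p alone in each, 3, 4 and 3 had an unadjusted p under 0.05, and DESeq2 called 0 in each.

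The RefSeq table of promoters held entries for 3 of the 10 genes, SPP1, SOX4 and KRT8. The entries for SOX4 and SPP1 are shown because the first was among the most even of the set and the second among the most different. Each is the 250 bases before the RefSeq start in GRCh38.p14, written 5′ to 3′ on the strand of the gene, and positions are counted back from the start. The SOX4 entry covers chr6:21593501-21593750 on the plus strand. Capitals mark matches to CCAAT or GGAATG on either strand, and 1 CCAAT match, in reverse, overlaps the GGAATG match.
SOX4: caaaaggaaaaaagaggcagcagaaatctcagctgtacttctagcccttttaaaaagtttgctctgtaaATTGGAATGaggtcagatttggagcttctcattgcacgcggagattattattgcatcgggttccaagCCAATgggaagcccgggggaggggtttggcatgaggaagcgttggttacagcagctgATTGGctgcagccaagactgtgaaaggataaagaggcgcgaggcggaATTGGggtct
The window held 4 CCAAT matches, the motif bound by NF-Y, at -181, -114, -57 and -10, and 1 GGAATG match, the core bound by TEAD factors, at -178. Of 35116 promoter windows of this length, 32.0% held a CCAAT and 11.9% a GGAATG. The 8 CG pairs were below the median of 11. The KRT8 entry starts 21.4 kb upstream of the canonical KRT8 start and is not shown. Matches are letters in a window and not sites of binding.

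SPP1 encodes osteopontin, a secreted glycoprotein of bile duct and many other cells, and was the lowest gene of the set that had counts. The SPP1 entry covers chr4:87975464-87975713 on the plus strand, and capitals mark matches on either strand to ACAAT, a core bound by SOX factors, searched because SOX9 and SOX4 are in the set.
SPP1: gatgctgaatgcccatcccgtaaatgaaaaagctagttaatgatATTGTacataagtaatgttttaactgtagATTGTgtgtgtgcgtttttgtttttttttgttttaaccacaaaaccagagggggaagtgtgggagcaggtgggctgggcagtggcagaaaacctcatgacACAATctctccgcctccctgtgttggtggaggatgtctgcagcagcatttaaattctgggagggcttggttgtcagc
The window held 3 ACAAT matches, at -206 and -177 in reverse and at -77 as printed. At least 1 match was held by 24.6% of the windows and 3 or more by 1.37%. Neither printed window held the other motifs searched. The TATA box, searched as TATAAA, was in 10.7% of all windows. The GC box, searched as GGGCGG, was in 42.6%. The AP-1 site, searched as TGACTCA, was in 4.20%. The SPP1 window had 3 CG pairs.

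The SPP1 counts were 13, 7 and 14 in the control libraries, 1, 2 and 8 in the Ako-3 libraries, and 85, 83 and 80 in the Mko-3 libraries. In FPKM the levels were 0.298, 0.198 and 0.331 in control, 0.0260, 0.0432 and 0.198 in Ako-3, and 2.06, 2.02 and 2.24 in Mko-3 libraries. The Mko-3 libraries stood above all the others, and the highest Ako-3 library reached the lowest control library. From pooled counts of 34, 11 and 248, Mko-3 was 7.48-fold above control cells (exact 95% interval 5.21 to 11.0) and 23.8-fold above Ako-3 cells (13.1 to 48.3), and the ratio of Ako-3 to control cells was 0.314 (0.144 to 0.635). These intervals cover counting error only. The fitted log2 fold changes were 2.89 (SE 0.26) against control and 4.52 (SE 0.35) against Ako-3 cells, and the latter was 5.76 without Ako-3 replicate 3. SPP1 passed the filter on low counts in these comparisons only through the Mko-3 libraries, and in Ako-3 against control cells it did not pass and was not tested. With no such filter its log2 fold change there was -1.60 (SE 0.64) and it passed both thresholds with edgeR, whereas DESeq2 gave -1.64 and did not call it. That comparison turned on single libraries: SPP1 was called at -2.87 without Ako-3 replicate 3 and not called at -1.23 and -1.27 without Ako-3 replicates 1 and 2.

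SPP1 lies on chromosome 4, 11.6 Mb from MTTP, the gene targeted in Mko-3 cells. Its 10 nearest tested genes had a median log2 fold change of 0.12 in Mko-3 against control cells. PKD2, the gene of polycystin 2, at 63.2 kb between gene centres, rose by 1.29 (SE 0.11, edgeR Benjamini-Hochberg adjusted p = 2.2e-09), and SPARCL1, a matrix protein gene on the other side, was at -1.51 and passed both thresholds. The related bone and tooth glycoprotein genes beside SPP1 (IBSP, DMP1, DSPP and MEPE) were all below the filter, so 0 of 4 were tested.

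Osteopontin binds integrins and CD44. Of 10 receptor genes, 7 were tested in Ako-3 against control cells and none passed both thresholds, with 3 past the adjusted p alone, the same number at an unadjusted p under 0.05 and 0 called by DESeq2. In Mko-3 against control cells, 3 of 8 rose. ITGA5, an integrin alpha chain, rose by 1.17 (SE 0.06, edgeR Benjamini-Hochberg adjusted p = 2.9e-12) and ITGB6, a beta chain of epithelia, by 1.53 (SE 0.25, adjusted p = 2.4e-05 by the same edgeR test). CD44, with 4 to 9 counts in control, 0 to 12 in Ako-3 and 30 to 47 in Mko-3 libraries, rose by 2.49 (SE 0.39, edgeR Benjamini-Hochberg adjusted p = 1.5e-05). CD44 passed the filter on low counts only through the Mko-3 libraries, so a rise was bound to be seen. Against Ako-3 cells 2 of 8 were higher, ITGB6 by 1.31 and CD44 by 3.03, and the CD44 value was 5.18 without Ako-3 replicate 1, 2.39 without Ako-3 replicate 2, and not past the thresholds with DESeq2. The median of the list was 0.14, 0.41 and 0.78 in the 3 comparisons.

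Other bile duct markers went both ways. Of 26, 21 were tested in each comparison. In Ako-3 against control cells 2 rose, TFF3, a mucosal peptide, by 1.86 and AGR2, a protein folding factor of secretory epithelia, by 1.31 (edgeR Benjamini-Hochberg adjusted p = 1.8e-04 and 4.8e-10). In Mko-3 against control cells PKD2 rose and 3 fell, among them CLDN3, a claudin, by 1.23 (edgeR Benjamini-Hochberg adjusted p = 3.0e-06) and AGR2 by 1.08 (adjusted p = 4.7e-08), the latter being -0.99 and no longer called without control replicate 2. PKD2 was at 0.56 in Ako-3 and 1.29 in Mko-3 against the controls. Between the clones 2 were higher and 3 lower in Mko-3, with AGR2 at -2.39 and CLDN4, another claudin, at 1.01, a call lost without Ako-3 replicate 2 (0.96) or Mko-3 replicate 1 (0.95). In Mko-3 against the controls 13 of 21 values were positive. The median log2 fold change of the list was 0.14, 0.37 and 0.06. Its summed level was 362 to 387 FPKM in control, 440 to 485 in Ako-3 and 469 to 478 in Mko-3 libraries.

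Of 19 other progenitor markers, 11 were tested in Ako-3 against control cells and 12 in each Mko-3 comparison. LGR5, a receptor of Wnt-responsive progenitor cells, rose in both clones. It had 61 to 112 counts in control, 323 to 368 in Ako-3 and 243 to 290 in Mko-3 libraries. Against the controls it rose by 1.90 in the Ako-3 and by 1.62 in the Mko-3 comparison on the log2 scale (edgeR Benjamini-Hochberg adjusted p = 2.8e-06 and 4.4e-06). CD44, which is also in this list, was the other gene called in Mko-3 against control cells, and none fell in any comparison. The list medians were 0.21, 0.36 and -0.01. Its summed level was 1557 to 1571 FPKM in control, 1740 to 1805 in Ako-3 and 2287 to 2398 in Mko-3 libraries. Only 10, 11 and 11 of the 19 genes had a mean above 1 FPKM in these groups. AFP, a progenitor marker, stood at 1025 to 1077, 1145 to 1191 and 1795 to 1911 FPKM in the same order. The sum can follow a single high gene and is no measure of the list as a whole. SOX17, KIT, DLK1 and FOXL1 had no count.

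Hepatocyte markers were read beside the set. In Ako-3 against control cells 1 of 18 was higher, APOA2, an apolipoprotein, at 1.02, a call lost without Ako-3 replicate 2 (0.98) or with upper-quartile scaling (0.97), and the list median was 0.39. In Mko-3 against control cells 2 of 18 fell, FGG, a fibrinogen chain, by 1.25 and ASGR1, the asialoglycoprotein receptor, by 1.12 (edgeR Benjamini-Hochberg adjusted p = 4.8e-12 and 4.3e-11), with a median of -0.41. In Mko-3 against Ako-3 cells 3 fell, with a median of -0.69 and 17 of 18 values negative. The summed hepatocyte marker level was 4689 to 5047 FPKM in control, 5808 to 6138 in Ako-3 and 3681 to 3833 in Mko-3 libraries, so it moved opposite to KRT19 between the clones, and its part in the results was not tested. Markers of other cell types were mixed. Of 16, 4 to 6 had at most 3 counts in every library of a group, and among these the leukocyte marker PTPRC did not exceed 2 counts and CD68 had no count. PECAM1, an endothelial marker, stood at 6.15 to 13.9 FPKM over the libraries. COL1A2, a collagen chain of fibroblasts, had 43 to 77 counts in the control libraries, 0 to 15 in those of Ako-3 and 5 to 8 in those of Mko-3. It fell by 3.12 in Ako-3 and by 3.10 in Mko-3 against the controls (edgeR Benjamini-Hochberg adjusted p = 1.2e-04 and 1.6e-07), the former being -4.39 without Ako-3 replicate 2, and passed the filter on low counts only through the control libraries. RGS5, a pericyte marker, fell by 1.24 in Mko-3 against the controls (edgeR Benjamini-Hochberg adjusted p = 8.7e-06). The summed level of the list was 159 to 174, 196 to 214 and 193 to 207 FPKM in control, Ako-3 and Mko-3 libraries, and its part in the results was not tested. Only 2, 2 and 3 of the 16 genes had a mean above 1 FPKM in these groups, and PECAM1 held little of the sum. The sum thus rests on very few genes and is no measure of the list as a whole. YAP and TEAD genes, which are tied to duct and progenitor programmes in liver, were tested for 19 of 20, and 1 passed in Ako-3 against control cells, ANKRD1, which fell by 2.38 (edgeR Benjamini-Hochberg adjusted p = 1.1e-08), and none in Mko-3 against control cells, where 9 passed the adjusted p alone, 11 had an unadjusted p under 0.05 and DESeq2 called 0.

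**Figure D5:**
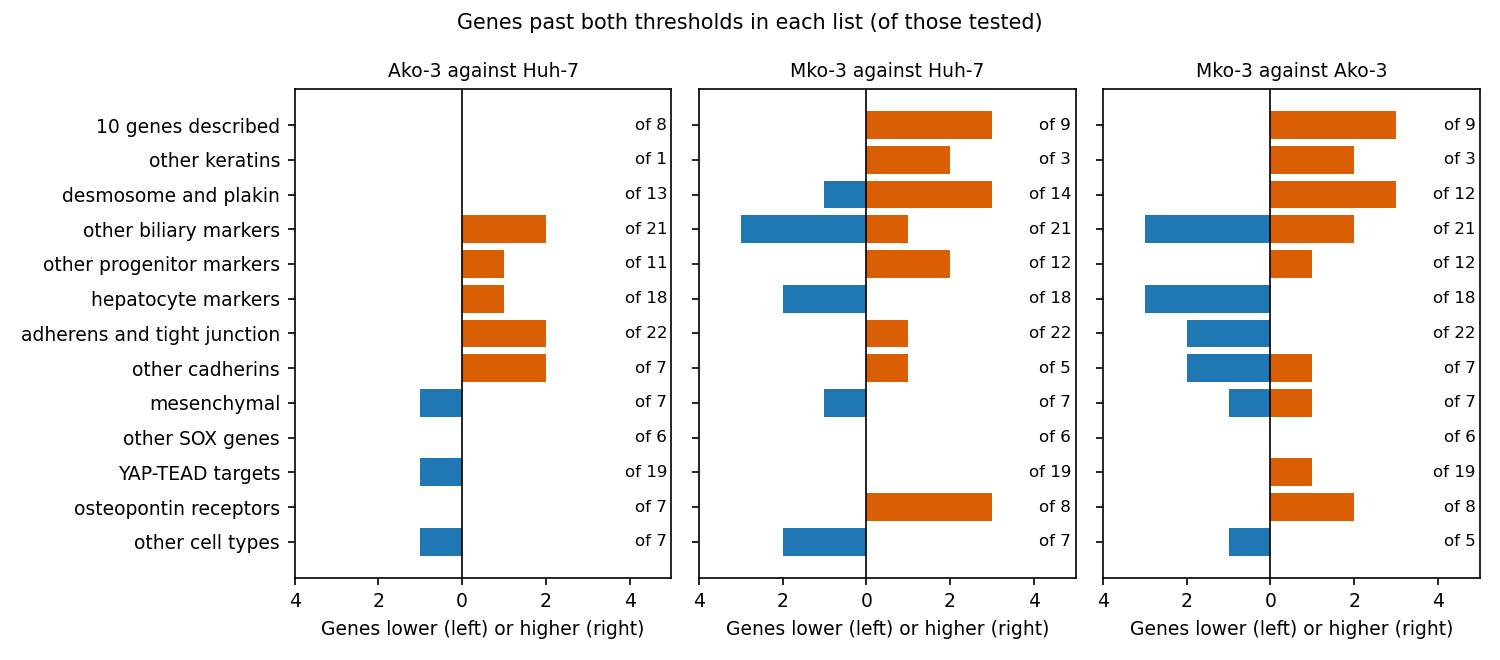
Number of genes per list that passed both thresholds, lower to the left in blue and higher to the right in orange, in the 3 comparisons; the number at the right edge is that of genes tested. The desmosome list and the osteopontin receptors each had 3 genes higher in Mko-3 and none in Ako-3 against control cells. The difference between these counts was not tested. PKP3 and CD44, counted for Mko-3, were not tested in Ako-3 against control cells and could not be counted there. The call of DSC3 was not kept in every alternative. Over all genes tested, 3.82% were called higher in Mko-3 and 3.52% in Ako-3 against control cells. The bar of the 10 genes described is shown for reference only, since these were picked with the results known.

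The order of levels within a library differed between groups. In control cells the order by mean FPKM was KRT8, KRT18, CDH1, SOX9, SOX4, EPCAM, KRT23, KRT19 and SPP1, with overlapping library ranges between KRT18 and CDH1 and between CDH1 and SOX9. In Ako-3 cells EPCAM passed SOX4, and KRT23 and KRT19 overlapped. In Mko-3 cells EPCAM also passed SOX9 and KRT19 passed KRT23, and no neighbours in the order overlapped. These orders use the deposited gene lengths, which exceed the canonical ones unevenly. EPCAM has 2519 against 1547 bases, SOX9 3935 against 3931, KRT19 2336 against 1390 and KRT23 2902 against 2209. The group in which one gene passes another can therefore depend on the length used, and the order with canonical lengths was not computed.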

How the data were processed

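Polyadenylated RNA of 9 libraries was sequenced. Per the study's methods, HISAT2 (2.0.5) placed the reads on hg38 and featureCounts (1.5.0-p3) counted them per gene. The authors deposited raw counts and FPKM, which equal counts divided by gene length and by DESeq2 size factors over all 9 libraries. The 10 genes and all lists were chosen with earlier results of these data known. Counts were tested here with edgeR (4.0.16, R 4.3.3): TMM scaling, the low-count filter filterByExpr (minimum 10), the quasi-likelihood F test with robust dispersions, Benjamini-Hochberg adjustment over all genes tested, in separate fits of 6 libraries. SE is the log2 fold change divided by the root of F. The fit was tested on simulated data. Named from the lists were up to 3 called genes per list and comparison with the smallest adjusted p, every tested keratin, and called neighbours. DESeq2 (1.42.0), other scalings and filters, a joint fit, a replicate block and leave-one-out were alternatives. Of 206 listed symbols, 4 were matched by Ensembl identifier. With 14638727 to 20179760 counts per library, values near the minimum count have wide errors.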

Additional observations from a re-analysis of the deposited data

Results flagged for a closer look

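Several genes differed between the knockout clones when Mko-3 was set directly against Ako-3, where both thresholds were passed. Values are log2 fold changes, higher in Mko-3 where positive. Within the set these were KRT19 at 2.42, KRT23 at 1.06 and SPP1 at 4.52, which are descriptions because the genes were picked with results known. Among other keratins and desmosomal genes they were KRT15 at 2.67, PKP3 at 5.42, PPL at 1.15 and DSC3 at 1.26, and KRT20 was at least 9.27-fold higher. Among bile duct, progenitor and receptor genes they were AGR2 at -2.39, TFF3 at -1.30, CLDN4 at 1.01, CD44 at 3.03 and ITGB6 at 1.31.

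Among hepatocyte markers they were FGG at -1.22, AHSG at -1.86 and G6PC1 at -1.002. Among junction genes and cadherins they were CLDN14 at -1.08, TJP3 at -1.11, CDH6 at 1.41 and CDH15 at -1.29, and CDH11 was at least 9.49-fold lower. Among the rest they were ZEB2 at 1.51, SNAI3 at -1.16, ANKRD1 at 2.31 and PECAM1 at -1.05. The call was lost for CLDN4 without Ako-3 replicate 2 (0.96) or Mko-3 replicate 1 (0.95), for CLDN14 without the same libraries (-0.97 and -0.99), for TJP3 without Mko-3 replicate 2 (-0.99), for CDH15 and CD44 with DESeq2, and for G6PC1 without Ako-3 replicate 1 (-0.998), Ako-3 replicate 2 (-0.98) or Mko-3 replicate 1 (-0.93), with no filter on low counts (-0.997) and with all 9 libraries in one fit (-0.9998). KRT15, KRT20, SPP1, PKP3 and CD44 passed the filter on low counts only through the Mko-3 libraries, and CDH11 and CDH15 only through the Ako-3 libraries. Leaving out 1 library moved SPP1 to 5.76 (Ako-3 replicate 3), KRT15 to 4.21 (Ako-3 replicate 2) and CD44 to 5.18 (Ako-3 replicate 1) or 2.39 (Ako-3 replicate 2).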

How the results depend on the processing

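Of 345 values of log2 fold changes of the set under alternatives, 339 kept their direction and side of the thresholds. The other 6 were all CDH1 in Mko-3 against Ako-3 cells, which turned to 0.0043 with no filter on low counts and to 0.0011 with all 9 libraries in one fit, and ranged from -0.0345 to 0.0220 with each library left out. The genes of the set called in Ako-3 against control cells were 1 instead of 0 with no filter and with all 9 libraries in one fit, in both cases SPP1, and 0 to 1 in leave-one-out. They were 3 to 3 in leave-one-out in both Mko-3 comparisons. A minimum of 10 counts in every library tests fewer genes and called 841, 1113 and 511, and 0, 2 and 2 of the set. Leave-one-out gave 1254 to 1637, 1623 to 2106 and 895 to 964 genes, and 10 to 12, 21 to 24 and 22 to 27 listed genes. The KRT8 to KRT18 ratio was 2.82, 3.16 and 2.86 in control, Ako-3 and Mko-3 cells with canonical lengths and 3.56, 3.99 and 3.61 with none, alternatives chosen after seeing the data. Same-numbered replicates showed no clear shared deviation (correlations -0.0964 to 0.0781), and numbers were not used to pair samples in the main fits. With 3 libraries per group, these values cannot settle whether replicates of the same number were handled together. The fit with a replicate block called 1336, 1730 and 899 genes and 0, 3 and 3 of the set, and in no comparison did every sample correlate best with its own number. Genes under about 10 counts, SPP1, KRT15 and KRT20 in the control and Ako-3 libraries, are limited by depth.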
